A study of Sus scrofa with 24 samples.

Results

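The 10 genes followed here belong to the cullin-RING ubiquitin ligases, measured in fetal pig muscle. They are the scaffolds CUL1, CUL2, CUL3, CUL4A, CUL4B, CUL5 and CUL7, the RING subunit RBX1, the exchange factor CAND1 and the COP9 signalosome subunit COPS2. They were found by platform gene symbol, which gave 21 probe sets for the 10 genes among 47845 probe sets of the array. All 24 samples were longissimus dorsi muscle (LDM), a back muscle, from F2 fetuses collected at 63 dpc (days post conception) from a cross of the German Landrace and Pietrain breeds, with no treatment and 1 Affymetrix Porcine Snowball array each. The study chose sib pairs of extreme weight from litters of 1 sire, in order to compare fetuses with intrauterine growth restriction (IUGR) with fetuses appropriate for gestational age (AGA). No label gives the weight group of a fetus, and the study's own listing of fetus numbers by weight group and dam was not used here, since groups were taken only from the labels. IUGR and AGA fetuses were therefore not compared, and fetuses are named by their numbers. Whether a member differs with weight, sex or litter was not tested, and any such difference is part of the spreads and correlations given here.

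Cullins are elongated scaffold proteins of ubiquitin ligases. One end of a cullin holds a small RING protein, RBX1 for most of the family, which brings in the ubiquitin-conjugating enzyme (E2), and the other end holds an adaptor with an exchangeable substrate receptor. Attachment of the ubiquitin-like protein NEDD8 switches a cullin on, the COP9 signalosome takes NEDD8 off again, and CAND1 binds the bare cullin and lets receptors be exchanged. In muscle these ligases are known for the turnover of sarcomere and signalling proteins, with the F-box protein FBXO32 (atrogin-1) and several Kelch proteins of CUL3 as well-known receptors.

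Values are robust multichip average (RMA) signals on the log2 scale, where a difference of 1 is a 2-fold difference. Array medians lay between 6.61 and 6.73, and each array had a median correlation of 0.973 to 0.986 with the rest. A probe set was kept for the tests when it exceeded the median of its array in at least 20 of the 24 arrays, which 21902 did. Of the 21 member probe sets, 13 passed, and 8 of the 10 genes had a probe set that passed. CUL5 and CAND1 did not, and their values are given as dim signals. The myofibre markers ACTA1, MYL1, DES, CKM and TNNC2 were measured, with medians of 12.62 to 13.48, as were the connective tissue genes COL1A1 (13.31) and DCN (12.90), while MYH3, MYH8 and MYOG had no probe set by symbol and were not analysed here. The mean of 39 background controls, probe sets that match no transcript and hold at least 13 G or C bases, ran from 7.30 in fetus 338 over a median of 7.60 to 7.94 in fetus 313. The first principal component of the other kept probe sets took 36.2% of the variance and correlated with this control signal (r = -0.79). Levels of different probe sets are not comparable, because probes differ in brightness, and only spreads and relations over fetuses are compared between genes.

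By the brightest probe set of each gene, the scaffolds fell into wide and narrow ones. The span, the 90th minus the 10th percentile over the 24 fetuses, had a median of 0.43 over all kept probe sets, which is 1.35-fold. Of the 7 scaffolds, 4 lay above it (CUL2, CUL3, CUL4B and the dim CUL5), and CUL1, CUL4A and CUL7 lay below. With the mean of all probe sets of a gene, CUL1 lay just above it, at 0.435 against 0.432. Differences between spans were not tested.

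CUL3, the scaffold of ligases that use BTB-domain receptors, had 8.89 in the lowest fetus (307), a median of 9.56 and 10.14 in the highest fetus (338). Its span of 0.87, or 1.83-fold, was wider than that of 94.2% of kept probe sets. CUL4B, which with DDB1 carries receptors of the DCAF family, ran from 7.35 in fetus 313 over a median of 8.01 to 8.74 in fetus 338, with a span of 0.86. CUL2, the scaffold that works with the von Hippel-Lindau protein VHL, ran from 7.40 in fetus 307 over 7.94 to 8.64 in fetus 338, with a span of 0.69 (1.61-fold). These 3 scaffolds had the same highest fetus, 338, and the same second highest fetus, 320. CUL5, which carries receptors with a SOCS box, read 6.12 in fetus 327, a median of 6.71 and 7.70 in fetus 338. Its probe set exceeded the array median in 13 of 24 arrays, and fetuses 338 and 320 were again the brightest.

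CUL1, the scaffold of the SCF ligases with F-box receptors, had a narrower span of 0.39 (1.31-fold). It ran from 8.61 over a median of 9.32 to 9.60 in fetus 311, and the lowest value, in fetus 384, lay apart from the other 23 fetuses, none of which was below 9.05. CUL4A, the paralog of CUL4B, ran from 8.45 in fetus 376 over 8.71 to 8.93 in fetus 272, and its span of 0.31 was wider than that of 14.3% of kept probe sets. CUL7, the scaffold that binds the F-box protein FBXW8 and OBSL1, varied least of the 10 members by brightest probe set. It ran from 8.41 over 8.68 to 8.87 with a span of 0.26 (1.20-fold). The second CUL7 probe set had a span of 0.43, and by the mean of all probe sets CUL4A was narrower (0.31 against 0.33). The order of the brightest CUL7 probe set was turned round: fetus 338, the highest for 6 of the 10 members, was the lowest for CUL7. On the brightest probe sets, fetus 384, the lowest for CUL1, was the highest for CUL7.

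Among the partners, RBX1 had a span of 0.46, close to the median of all kept probe sets. It ran from 7.69 in fetus 297 over 8.08 to 8.26 in fetus 313. COPS2, a structural subunit of the COP9 signalosome, had the widest span of the 10 members. It read 7.95 in fetus 307, a median of 8.75 and 9.96 in fetus 338, and its span of 1.45, or 2.73-fold, was wider than that of 99.8% of kept probe sets. Only 2.91% of kept probe sets had a span of at least 1. CAND1 had a dim probe set, which exceeded the array median in 0 of 24 arrays and ran from 3.98 in fetus 340 over 4.71 to 5.55 in fetus 338, with a span of 0.87. No member fell into separate clusters of fetuses.

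**Figure D1:**
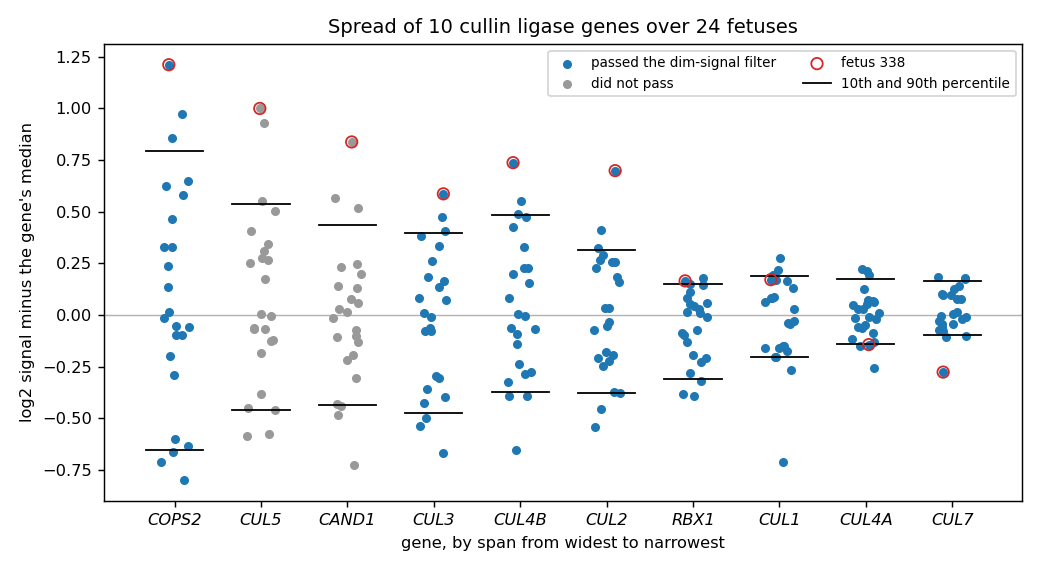
Log2 signal of the 10 members, by the brightest probe set of each, in each of 24 fetuses (points, 1 per fetus). Values are differences from the gene's own median, with black lines at the 10th and 90th percentile and fetus 338 ringed in red. Genes run from the widest span (COPS2, 1.45) to the narrowest (CUL7, 0.26), grey points are genes whose probe set did not pass the filter, and fetus 338 is at the top for 6 genes and at the bottom for CUL7.

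Probe sets of 1 gene read the same gene at different places, so their agreement says how far a spread is shared. The 5 further kept probe sets were set against the brightest one of their gene in a limma fit over all kept probe sets, and 4 rose with it at an adjusted p under 0.05. In the same fits 20.6% of all kept probe sets rose with CUL4B, 20.4% with CUL2, 4.11% with CUL1 and 0.676% with CUL7. CUL4B agreed best, with r = 0.91 (adjusted p = 3.38e-09). CUL2 followed with r = 0.77 (adjusted p = 6.2e-05), CUL1 with r = 0.72 for its second probe set (adjusted p = 0.0058) and CUL7 with r = 0.71 (adjusted p = 0.0414). With the background control signal as a covariate, 1 of the 5, that of CUL4B, passed, where 9.53% of all kept probe sets rose with CUL4B. The remaining CUL1 probe set had r = 0.29 (adjusted p = 0.366), and 1 fetus set that value. Fetus 384 was the lowest of 24 on the brightest CUL1 probe set, with 8.61, and the highest on the third, with 8.97. Without fetus 384, a choice made after the values were seen, r between these CUL1 probe sets was 0.78, and that of the second with the brightest was 0.66.

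Dim probe sets gave mixed readings. The second COPS2 probe set correlated with the brightest at r = 0.80, the third of CUL4B at 0.73 and the second of CUL5 at 0.74. The second CUL3 probe set, with a median of 6.03, did not follow the first (r = -0.04), nor did the second RBX1 probe set (r = 0.04). The third CUL5 probe set, with a median of 2.72, had r = 0.23 with the brightest of its gene. The wide CUL3 spread therefore rests on 1 of its 2 probe sets, and CUL4A and CAND1 each had a single probe set.

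The next question was which members moved together over the 24 fetuses. All kept probe sets were fitted on CUL3, chosen as the reference because it was already known as the widest cullin above the filter. Of the 7 other members that passed the filter, 4 rose with CUL3 (CUL1, CUL2, CUL4B and COPS2) and 1 fell (CUL7) at an adjusted p under 0.05 (limma, Benjamini-Hochberg over 21901 probe sets). Of all kept probe sets, 20.5% rose and 27.8% fell with CUL3, together 48.3%, so a call in this fit is common. In bulk tissue a higher share of cells with the transcript and more transcript per cell cannot be told apart.

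COPS2 was the closest member to CUL3, with r = 0.93 and rho = 0.89 (permutation p = 1e-05 for each, the smallest that 100000 permutations can give, adjusted p = 2.14e-10). CUL4B had r = 0.89 and rho = 0.90 with CUL3 (adjusted p = 1.81e-08), and CUL2 had r = 0.84 and rho = 0.80 (adjusted p = 9.02e-07). With the 2 most extreme fetuses of CUL3 left out, r stayed at 0.90 for COPS2, 0.88 for CUL4B and 0.77 for CUL2. In the order of all 9709 named genes by r with CUL3, COPS2 stood at 103, CUL4B at 333, CUL2 at 698 and CUL1 at 1846. The high r of these members was thus shared by many other genes.

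CUL1 rose with CUL3 less tightly, at r = 0.56 and rho = 0.69 (permutation p = 0.00369 and 0.00021, adjusted p = 0.00886). Leaving out each fetus in turn gave CUL1 an r of 0.52 to 0.73, the highest without fetus 384. RBX1 showed no linear relation with CUL3, with r = -0.0014 (permutation p = 0.995, adjusted p = 0.997). In a fit on RBX1 itself, 0% of 21901 probe sets passed, against 2470 at an unadjusted p under 0.05, and 0 passed on ranks. CUL4A had r = -0.26 with CUL3 (permutation p = 0.226, adjusted p = 0.346), which did not pass. CUL7 fell as CUL3 rose, with r = -0.56 and rho = -0.59 (permutation p = 0.00431 and 0.00271, adjusted p = 0.0273). That CUL7 call was lost without fetus 320 or without fetus 338, where the adjusted p reached up to 0.129, and with the 2 most extreme fetuses of CUL3 left out r was -0.43.

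All 45 pairs of members were computed. A set of 6 genes, grouped after the values were seen, had high r throughout: CUL2, CUL3, CUL4B, CUL5, CAND1 and COPS2, whose 15 pairs ran from 0.65 to 0.93 with a median of 0.84. CUL4B and COPS2 had the highest r of all 45, 0.93 (rho = 0.94). The dim genes set the lower end of that range. CUL5 had r = 0.65 with CUL3, but 0.85 with CUL2 and 0.82 with COPS2. CAND1 had 0.71 with CUL4B and 0.75 with CUL3, but 0.85 with COPS2. Pairs among CUL2, CUL3, CUL4B and COPS2, which passed the filter, ran from 0.84 to 0.93. By contrast, the 6 pairs among CUL1, CUL4A, CUL7 and RBX1 ran from -0.53 to 0.31. The paralogs CUL4A and CUL4B had r = -0.32 and rho = -0.30 (permutation p = 0.125 and 0.16, adjusted p = 0.245). CUL1 and CUL7 had r = -0.53 (permutation p = 0.00903, adjusted p = 0.157).

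A pair was called when it passed in both directions, with each gene in turn as the reference. Of the 28 pairs of members that passed the filter, 8 were called, and all 8 were positive: CUL3 with CUL1, CUL2, CUL4B and COPS2, CUL4B with CUL1, CUL2 and COPS2, and CUL2 with COPS2. The shares of all kept probe sets called were 48.6% in the fit on COPS2, 48.2% on CUL4B, 47.1% on CUL2, 4.63% on CUL1, 2.05% on CUL7 and 9.77% on CUL4A. The pairs of CUL1 with CUL3 and with CUL4B passed closely, with adjusted p of 0.0478 and 0.0434 in the weaker direction. CUL7 passed with CUL3 as the reference but not in the reverse fit (adjusted p = 0.0578).

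**Figure D2:**
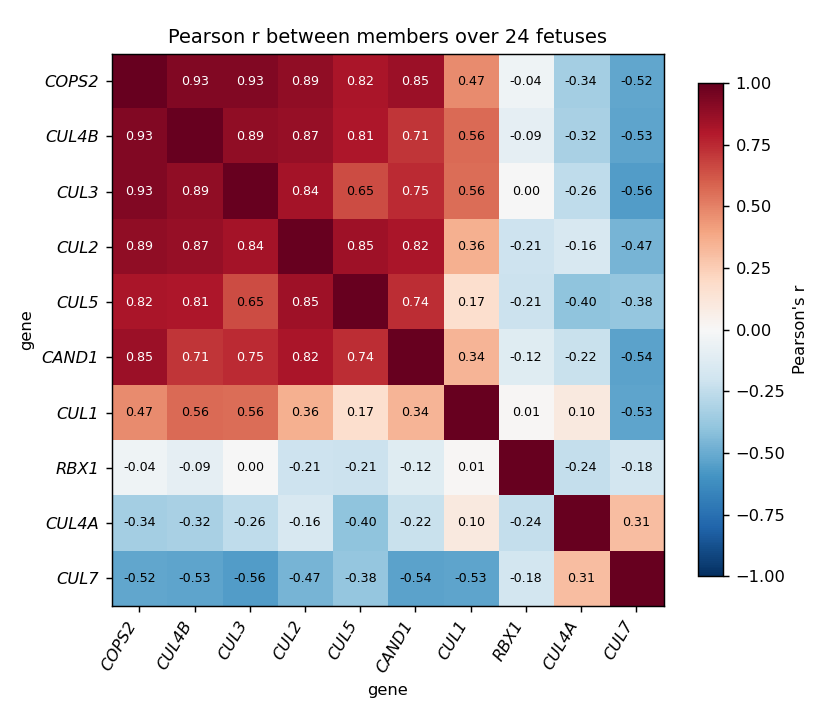
Pearson's r over 24 fetuses for each pair of the 10 members, from -1 (blue) to 1 (red), with genes in rows and columns and r printed in each cell. The upper left 6 genes (COPS2, CUL4B, CUL3, CUL2, CUL5, CAND1) have r of 0.65 to 0.93 with each other, and CUL7 has r below 0 with each of them.

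**Figure D3:**
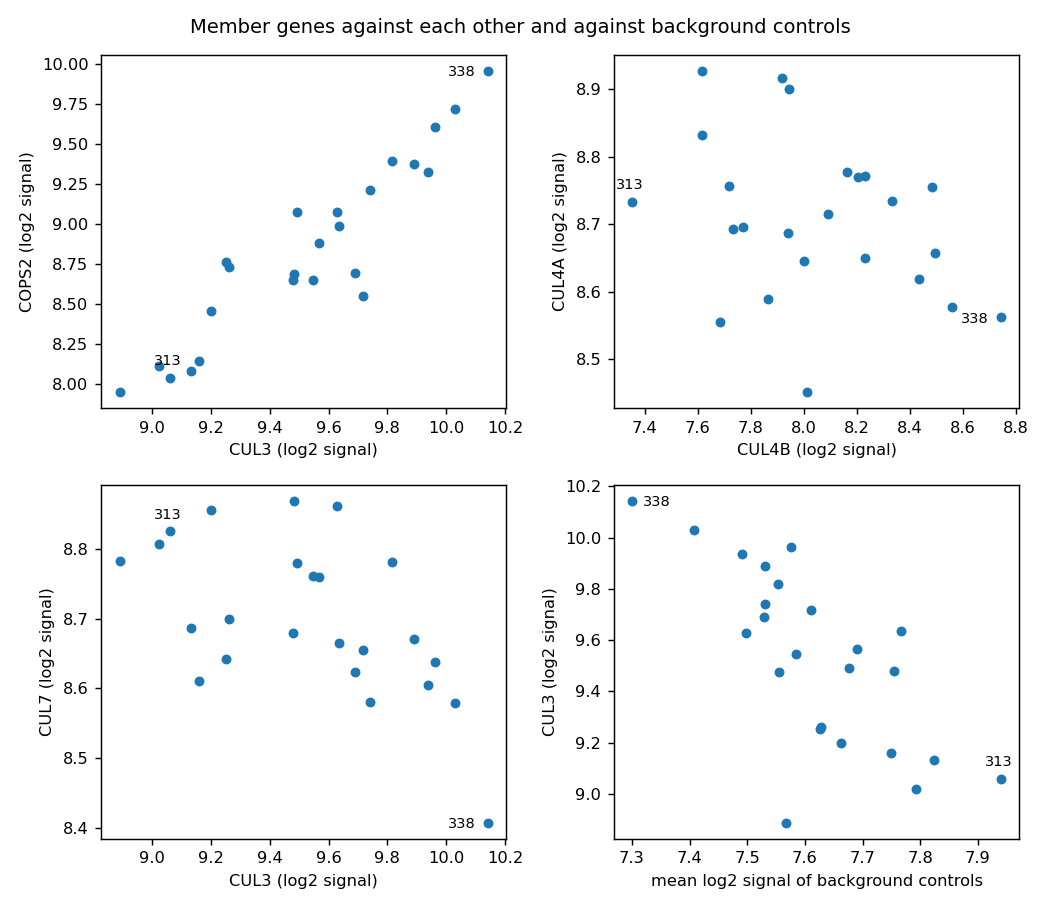
Log2 signals of 24 fetuses (points) for COPS2 against CUL3, CUL4A against CUL4B, CUL7 against CUL3 and CUL3 against the mean of the background controls, with fetuses 338 and 313 marked. COPS2 rises with CUL3 (r = 0.93), CUL4A does not follow its paralog (r = -0.32), CUL7 falls (r = -0.56) with fetus 338 at the lower right, and CUL3 falls as the control signal rises (r = -0.72).

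The same members also moved with the background controls. In a fit of all kept probe sets on the control signal, 5 of the 8 members that passed the filter fell as it rose (CUL1, CUL2, CUL3, CUL4B and COPS2) and 1 rose (CUL7), while 21.6% of all kept probe sets fell and 20% rose. CUL4B had the strongest relation, with r = -0.85 and rho = -0.82 (permutation p = 1e-05 and 2e-05, adjusted p = 5.62e-06). COPS2 had r = -0.74 (adjusted p = 0.000123), CUL2 had r = -0.73 (adjusted p = 0.000225) and CUL3 had r = -0.72 (adjusted p = 0.000272). CUL1 had r = -0.59 (adjusted p = 0.00682). The call of CUL7, with r = 0.56 (adjusted p = 0.0344), was lost without fetus 313, 320 or 338. CUL4A (r = 0.14, adjusted p = 0.629) and RBX1 (r = 0.06, adjusted p = 0.816) did not pass. With the 30 controls of fewer than 13 G or C bases in place of these, RBX1 fell, at r = -0.59 (adjusted p = 0.0281), as did 7.57% of all kept probe sets, and CUL1 and CUL2 did not pass.

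With the control signal as a covariate, 3 members still rose with CUL3, at a partial r of 0.84 for COPS2, 0.76 for CUL4B and 0.65 for CUL2, and 28.6% of all kept probe sets were called, 12.3% rising and 16.3% falling. CUL1 (partial r = 0.23, adjusted p = 0.423) and CUL7 (partial r = -0.27, adjusted p = 0.43) no longer passed. The spans of the wide members narrowed when the control signal was regressed out, to 0.75 for COPS2, 0.46 for CUL4B, 0.45 for CUL3 and 0.34 for CUL2, while the median of all kept probe sets went from 0.43 to 0.38. With the first principal component as a covariate, an alternative added after the values were seen, 0 members passed with CUL3 (limma), where 1, CUL1, had an unadjusted p under 0.05. The partial r was then 0.24 for COPS2, 0.04 for CUL4B, -0.22 for CUL2 and 0.44 for CUL1, and 0.114% of all kept probe sets were called. That component, taken without the members, correlated with COPS2 and CUL3 at r = 0.95 each, with CUL4B at 0.93, CUL2 at 0.91, CUL1 at 0.46, RBX1 at -0.07, CUL4A at -0.33 and CUL7 at -0.52. What part the background signal has in these relations was not tested.

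Cell type markers were read in the same CUL3 fit. Of 20 markers tested, 2 of the tendon and fibroblast list rose with CUL3 (DCN, r = 0.55, and PDGFRA, r = 0.66) and 6 fell: the myofibre genes DES (r = -0.72), CKM (r = -0.60) and TNNC2 (r = -0.66), the endothelial CDH5 (r = -0.51) and TIE1 (r = -0.85) and the adipocyte FABP4 (r = -0.49). Over all kept probe sets 20.5% rose and 27.8% fell, so 2 and 6 of 20 do not set the markers apart. With the control signal as a covariate, 3 markers fell, where 16.3% of all kept probe sets fell, and neither DCN (adjusted p = 0.44) nor PDGFRA (adjusted p = 0.402) passed. The other 12, among them ACTA1, COL1A1, C1QC and HBB, did not pass. The myofibre markers that fell were narrow, with spans of 0.28 for DES and 0.23 for CKM and TNNC2. Their part in the spread of CUL3 was not tested.

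Other genes of the cullin system were read from a list ordered by role. Of 84 listed genes, 65 had a probe set by symbol and 61 were tested on CUL3. There were 25 that rose with CUL3, 16 that fell and 20 that did not pass, against 20.5% and 27.8% of all kept probe sets, and the median r of the 61 was 0.28 against -0.21 for all. With the control signal as a covariate, 15 rose and 14 fell, where 12.3% of all kept probe sets rose and 16.3% fell. The 14 include genes that had not passed without the covariate. Genes named below beyond the naming rule complete a count of a role or passed only with the covariate, and were chosen after their values were seen.

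Of 8 tested genes of NEDD8 attachment, 4 rose with CUL3 and 2 fell, where 20.5% of all kept probe sets rose and 27.8% fell. Both subunits of the NEDD8-activating enzyme rose, UBA3 with r = 0.73 (adjusted p = 0.000159) and NAE1 with r = 0.63 (adjusted p = 0.00159), as did the NEDD8 ligation factors DCUN1D1 (r = 0.85, adjusted p = 2.55e-07) and DCUN1D5 (r = 0.76, adjusted p = 0.000142). NEDD8 itself fell (r = -0.60, adjusted p = 0.00455), and so did UBE2M, the NEDD8-conjugating enzyme (r = -0.70, adjusted p = 0.000265). DCUN1D1 had the widest span of these, 0.85, and ran from 7.32 in fetus 283 over 7.74 to 8.45 in fetus 338, whereas UBE2M had a span of 0.75 and ran from 10.01 in fetus 376 over 10.45 to 11.21 in fetus 272. DCUN1D3 (r = -0.22) and DCUN1D4 (r = -0.10) did not pass. With the control signal as a covariate, NAE1 (adjusted p = 0.163) and NEDD8 (adjusted p = 0.146) no longer passed. DCUN1D4 did pass there, and fell (partial r = -0.52, adjusted p = 0.046).

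In the COP9 signalosome, 1 of 8 other subunits rose and 4 fell, where 20.5% of all kept probe sets rose and 27.8% fell. COPS5, the catalytic subunit that cuts NEDD8 off, rose with CUL3 (r = 0.63, adjusted p = 0.00236) and was highest in fetus 338, as COPS2 was. GPS1 (r = -0.65, adjusted p = 0.0029), COPS3 (r = -0.48, adjusted p = 0.0332), COPS6 (r = -0.70, adjusted p = 0.000579) and COPS7A (r = -0.73, adjusted p = 0.000967) fell. COPS4, COPS7B and COPS8 did not pass. With COPS2 itself the same 4 subunits had r of -0.64, -0.61, -0.70 and -0.81, while COPS5 had 0.71. Subunits of 1 complex thus had r of both signs, in a fit that called 48.6% of all kept probe sets. Once the first component was a covariate, none of the 8 other subunits passed with CUL3. COPS2 was also wider than any other subunit: its span of 1.45 stood against 0.27 for COPS7B, the narrowest, and 0.46 for COPS6, the widest of the 8 others. With the control signal as a covariate, 3 subunits still fell with CUL3, where 16.3% of all kept probe sets fell. COPS5 did not pass there (partial r = 0.31, adjusted p = 0.272).

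Among the other regulators, GLMN, an inhibitor that covers RBX1, rose with CUL3 (r = 0.80), as did NUB1 (r = 0.61), which sends NEDD8 conjugates to the proteasome, and UCHL3 (r = 0.53), which trims the NEDD8 precursor. CAND2, the muscle paralog of CAND1, fell (r = -0.65, adjusted p = 0.00168), while the dim CAND1 signal had r = 0.75 with CUL3. COMMD1, a cullin-binding protein, fell too (r = -0.58). Of the partner enzymes, ARIH1, which adds the first ubiquitin next to an active cullin, had r = 0.86 (adjusted p = 3.3e-07), 1 of the 2 highest of the list. The E2 enzymes UBE2D1 (r = 0.81) and UBE2D3 (r = 0.53) rose, whereas CDC34, the chain-building E2 of SCF ligases, had the lowest r of the list (-0.76, adjusted p = 6.76e-05). ARIH2, the narrowest of these, did not pass (r = -0.28). RNF7, the RING subunit that serves CUL5, did not pass (r = 0.28), and the cullin-like scaffold ANAPC2 (r = -0.62) and RING subunit ANAPC11 (r = -0.70) of the anaphase-promoting complex fell. NUB1 (adjusted p = 0.21), UBE2D3 (adjusted p = 0.898) and ANAPC2 (adjusted p = 0.0743) no longer passed with the control signal as a covariate. The E2 enzyme UBE2R2 passed only there, and fell (partial r = -0.60, adjusted p = 0.0127).

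Substrate receptors were read by the cullin they serve, in the same fit, where 20.5% of all kept probe sets rose and 27.8% fell. For CUL1, 3 of 8 F-box receptors rose with CUL3, and the 1 with a negative r, FBXO11, did not pass (r = -0.09). FBXO30, an F-box protein known from muscle atrophy in mice, had the highest r of the list, 0.89 (adjusted p = 1.43e-08), and ran from 7.78 in fetus 283 over 8.33 to 9.05 in fetus 338. FBXW7 had r = 0.83 and FBXL5, the iron sensor, 0.49, while FBXO32 had r = 0.27 (adjusted p = 0.232) and SKP2 0.34 (adjusted p = 0.142). The adaptor SKP1 rose (r = 0.66, adjusted p = 0.0013). For CUL2 and CUL5, ASB5 (r = 0.76), SOCS5 (r = 0.68), SOCS6 (r = 0.64) and KLHDC2 (r = 0.69) rose, ASB2, which acts in muscle, fell (r = -0.60), and VHL was narrow and did not pass (r = -0.14). For CUL3 itself, the Kelch receptors KLHL9 (r = 0.72), KLHL20 (r = 0.66) and KLHL31 (r = 0.48) rose, and KCTD10 (r = -0.64) and RHOBTB1 (r = -0.54) fell. For CUL4, DCAF6 (r = 0.86) and CRBN (r = 0.67), the thalidomide target, rose and DCAF7 fell (r = -0.76). The 2 partners of CUL7 went apart: OBSL1, an obscurin-like cytoskeletal protein, rose with CUL3 (r = 0.82) and FBXW8 fell (r = -0.64). Several of these calls were lost with the control signal as a covariate. FBXL5 had a partial r of -0.14 (adjusted p = 0.694) and KLHL31 of 0.21 (adjusted p = 0.456). SKP1, KLHDC2, SOCS5, SOCS6, ASB2 and FBXW8 also no longer passed, with adjusted p of 0.0584 (SOCS6) to 0.105 (KLHDC2). DET1, of the CUL4 receptors, passed only with this covariate, and fell (partial r = -0.49, adjusted p = 0.0446).

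**Figure D4:**
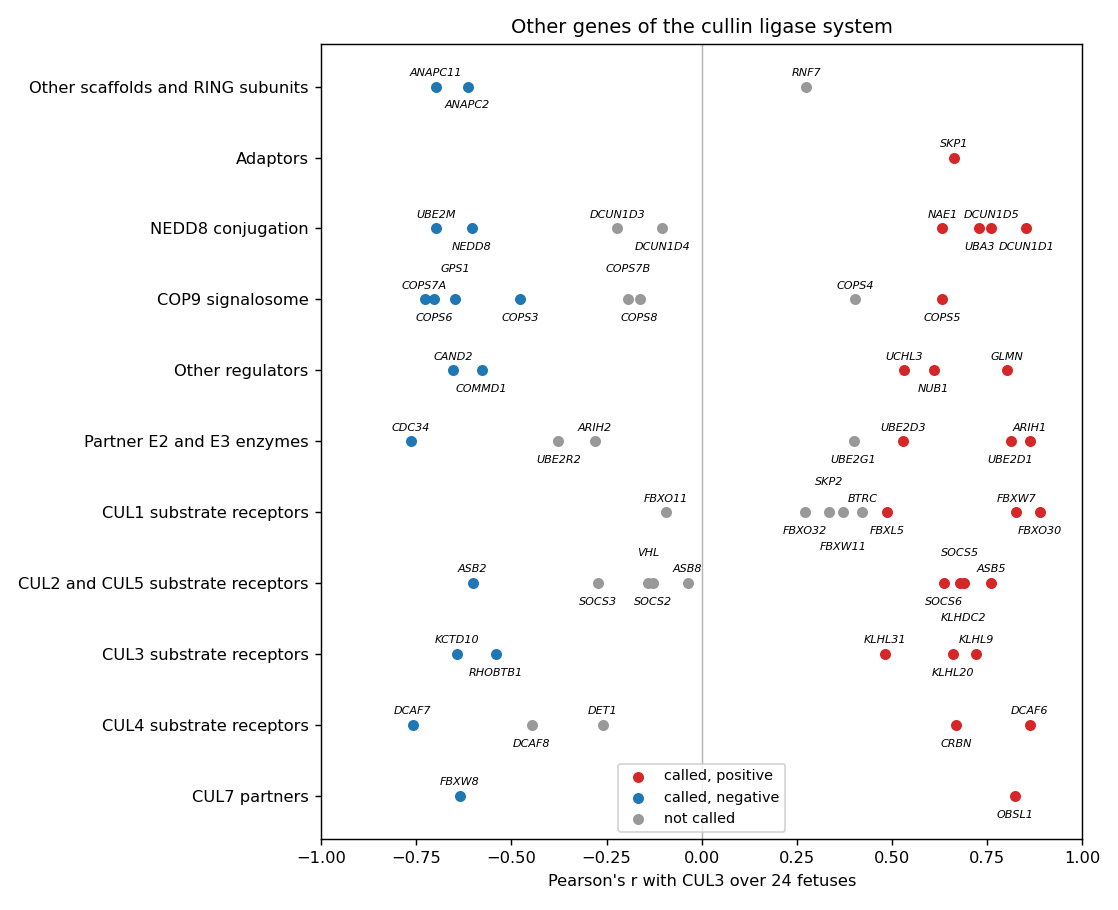
Pearson's r with CUL3 over 24 fetuses (horizontal axis) for the 61 other tested genes of the cullin system (points), in rows by role. Red points rose and blue points fell with CUL3 at an adjusted p under 0.05 (25 and 16 genes), grey points did not pass (20 genes), and NEDD8 conjugation and the COP9 signalosome hold points on both sides.

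The named genes whose pattern over the 24 fetuses was most like each member were found by Pearson's r among 9709 or 9710 genes, as a description. For CUL3 they were UBLCP1, a phosphatase of the proteasome (r = 0.98), MKLN1, muskelin, a subunit of another ubiquitin ligase (0.97), and RLF (0.97). For COPS2 they were FXR1, PCF11 and PRPF39, each with r = 0.97, and for CUL4B TRPM7 (0.97), RBBP6 (0.96) and TLK1 (0.96). CUL2 was most like DNAJC10, SYNE2 and IREB2, each with r = 0.94. The dim CUL5 was most like TMEM106B (0.92), BRIX1 and MAB21L3 (0.91 each), and the dim CAND1 like LCORL (0.91), HERC4 (0.90) and DEK (0.89).

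The other 4 members had different neighbours. CUL1 was most like EPS15 (r = 0.93), RAPH1 (0.89) and ZNF207 (0.88). CUL4A was most like HDAC5, a histone deacetylase (0.88), ZMYND8 (0.86) and AUTS2 (0.82). CUL7 had looser neighbours, TMEM198 (0.79), the F-box gene FBXW4 (0.79) and EPHB3 (0.78), and RBX1 had RPLP1, a ribosomal stalk protein (0.77), SLC18A2 and RTN4R (0.75 each). None of the members that passed the filter was among the 3 most alike genes of another member. CUL5 and CAND1, which did not pass it, were not among the genes searched.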

How the data were processed

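Total RNA of LDM from 24 fetuses was hybridized to 1 array each. The submitters' processing notes name GCOS 1.1.1. The deposited log2 values, 1 per fetus for each probe set, ran from 0.78 to 14.62 and come from RMA, which the authors ran in Expression Console. RMA gives all arrays 1 distribution, which removes overall brightness and can shift single probe sets. For the array's genome build, nothing is stated in the sources used here. Symbols came from the platform annotation and can be old. No array carried the values of another.

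The probe set with the highest median stood for its gene. Kept probe sets exceeded the array median in at least 80% of arrays. They were fitted on a member, or on the mean of the controls with 13 or more G or C bases, with limma 3.58.1 in R 4.3.3 (2-sided, Benjamini-Hochberg, threshold 0.05), checked on simulated data. Permutation p-values used 100000 draws and are 2-sided. Both these and the limma fits, which had no term for litter, treated fetuses as independent although sibs share a litter. CUL5 and CAND1 entered fits with no filter. The number of arrays limits the precision. Alternatives were no filter, a stricter filter, the mean of all probe sets, ranks, the control signal as a covariate and fetuses left out, and the first component as a covariate was added later. Named genes were all members, in each role of the list up to 3 of largest and 1 of smallest span and the 2 at either end of r with CUL3, and 3 neighbours per member. Members and lists were chosen with earlier results of these data known.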

Additional observations from a re-analysis of the deposited data

How the results depend on the processing

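No paired analysis was made, because the labels give no groups and the study's listing of weight group and dam was not used. Among the 7 other members that passed the filter, 4 rose with CUL3 under each alternative filter and with the mean of all probe sets. The count was also 4 on ranks, without fetuses 338 and 313 and with each fetus left out. The exceptions were the control signal as a covariate, with 3, and the first component as a covariate, with 0. With no filter the dim CUL5 and CAND1 rose as well, where 14% of all probe sets tested rose. The share that rose was 21.9% with the stricter filter, 21% on ranks, 17.5% without fetuses 338 and 313 and 11.5% with the mean of all probe sets. The member that fell (1) became 0 with either covariate and without fetuses 338 and 313, and was 0 to 1 with 1 fetus left out. Against 8 pairs called in the main fits, 6 were called with no filter, with the control signal as a covariate and without fetuses 338 and 313. The stricter filter gave 9 and ranks gave 10. With the first component, 0 pairs were called, 2 pathway genes rose and 0 fell, 0 markers rose or fell, and CUL2 turned to r = -0.22 with CUL3. With the mean of all probe sets, which mixes the dim second CUL3 probe set in, 16 pairs were called, 14 pathway genes rose, and 0 markers rose and 3 fell. There r with CUL3 was 0.58 for COPS2, 0.56 for CUL4B and 0.61 for CUL2, against 0.93, 0.89 and 0.84 in the main fit. CUL1 (0.58) and CUL7 (-0.69) were not weaker there, and the CUL3 span went from 0.87 to 0.52. Fewer were tested there, 54 pathway genes and 16 markers, and 30.9% of all 15090 tested were called. With the control signal as a covariate, 15 pathway genes rose, 0 markers rose and 3 fell, and 1 further probe set of a member was called. Without fetuses 338 and 313, 1 marker rose. In either direction, 36.7% of all kept probe sets were called there, 28.6% with the control signal and 0.114% with the first component. The member that rose with the control signal became 0 with controls of fewer G or C bases, with no filter and without fetuses 338 and 313, and was 0 to 1 with 1 fetus left out. Of all tested, 8.52% rose with controls of fewer G or C bases, 11.4% with no filter and 5.39% without fetuses 338 and 313. The causes were not tested. Dim signal limits what can be read from CUL5 and CAND1.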
